A study of Mus musculus with 96 samples.

Results

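The genes described here are the nuclear genes for complexes III, IV and V of the mitochondrial respiratory chain, with the electron carrier cytochrome c. They were the rows of the deposited count table whose symbol begins with Uqcr, Cox4 to Cox8 or Atp5, or is Cyc1 or Cycs. Of 54146 mouse genes in the table, 52 matched, 7 of these were pseudogenes, and 40 of the rest reached 16 counts in every replicate of at least 1 condition, as did 13357 genes in all. Complex III gave 9 genes, cytochrome c 1, complex IV 14 and complex V 16, the last including Atp5s, which encodes a factor related to the enzyme rather than a subunit of its core. The 5 genes that stayed below the limit were Cox4i2, Cox6b2, Cox7b2, Cox8c and a second entry named Atp5o, with at most 4 counts in any library. Cox6a2, Cox7a1 and Cox8b passed through the states or treatments in which they are high, so they had to differ between conditions, and counts that include them are also given without them or name them.

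C2C12 is a mouse myoblast line that proliferates in serum and fuses into myotubes in medium with 2% horse serum. The study treated proliferating myoblasts, cells at day 1 of low serum and day 4 myotubes with inhibitors of the respiratory chain and sequenced polyadenylated RNA from 96 samples in 35 conditions, 26 of them with 3 samples and 9 with 2. All myoblasts were stable lentiviral lines with a doxycycline-inducible transgene and all received doxycycline at 300 ng/ml, which day 1 cells and myotubes did not: luciferase as the control, LbNOX (a bacterial NADH oxidase in the cytosol), mitoLbNOX (the same enzyme sent to the mitochondrial matrix) or NDI1 (a yeast NADH dehydrogenase of the inner membrane). Day 1 cells and most myotubes carried no transgene, and further myotubes had received adenovirus for GFP, or for LbNOX together with GFP. The agents were piericidin at 0.5 µM (complex I), antimycin at 0.5 µM (complex III), oligomycin at 1 µM (complex V) and, in myotubes, the uncoupler BAM15 at 0.5 µM, each for 10 h in medium without pyruvate and uridine. Myotubes at 5% O2 were moved to low oxygen the night before and kept there through the 10 h, so their exposure was longer than that to the drugs. Luciferase and LbNOX myoblasts were also given chloramphenicol, which blocks mitochondrial translation, at 20 µg/ml for 48 h with uridine. DMSO was the control throughout. Because the myoblast control carried luciferase and the differentiating cells did not, cell state, transgene, doxycycline and medium cannot be told apart in comparisons between states. Labels do not say whether replicates were separate cultures, so p-values measure the spread between these samples.

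Electrons reach complex III (ubiquinol-cytochrome c reductase) from ubiquinol, pass to cytochrome c and then to complex IV (cytochrome c oxidase), which reduces oxygen. Both complexes pump protons, and complex V (ATP synthase) lets protons back through its c-ring and makes ATP. Mitochondrial DNA encodes cytochrome b of complex III, 3 core subunits of complex IV and a pair of complex V subunits, and nuclear genes encode all others. Several complex IV subunits exist as a pair of isoforms, 1 found in most tissues and 1 typical of heart and skeletal muscle: Cox6a1 and Cox6a2, Cox7a2 and Cox7a1, Cox8a and Cox8b.

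Promoters of 4 genes on which the results turn are shown first. Cox7a1 and Cox8b are muscle isoforms, Cox6a1 is the widespread partner of Cox6a2, and Uqcrh had the largest decrease with oligomycin in myoblasts. The 250 bases before each RefSeq start (GRCm38.p6) lie at chr7:30183921-30184170 (+ strand), chr7:140900447-140900696 (- strand), chr5:115348959-115349208 (- strand) and chr4:116075071-116075320 (- strand), in that order. Capitals mark matches to the motifs named below on either strand.
Cox7a1: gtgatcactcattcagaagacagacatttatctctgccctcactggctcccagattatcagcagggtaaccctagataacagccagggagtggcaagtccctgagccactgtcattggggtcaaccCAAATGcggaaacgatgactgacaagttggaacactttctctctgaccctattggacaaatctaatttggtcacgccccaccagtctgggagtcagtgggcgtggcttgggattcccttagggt
Cox8b: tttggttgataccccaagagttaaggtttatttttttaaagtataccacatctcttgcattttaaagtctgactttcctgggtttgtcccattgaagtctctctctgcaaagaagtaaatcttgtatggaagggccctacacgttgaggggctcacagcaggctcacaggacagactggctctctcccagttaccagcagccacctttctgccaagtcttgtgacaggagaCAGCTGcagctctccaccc
Cox6a1: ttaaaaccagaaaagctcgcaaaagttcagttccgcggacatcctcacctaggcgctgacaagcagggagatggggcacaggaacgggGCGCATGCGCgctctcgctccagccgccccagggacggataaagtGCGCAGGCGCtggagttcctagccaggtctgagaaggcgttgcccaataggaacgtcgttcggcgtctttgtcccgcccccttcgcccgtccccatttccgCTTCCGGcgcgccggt
Uqcrh: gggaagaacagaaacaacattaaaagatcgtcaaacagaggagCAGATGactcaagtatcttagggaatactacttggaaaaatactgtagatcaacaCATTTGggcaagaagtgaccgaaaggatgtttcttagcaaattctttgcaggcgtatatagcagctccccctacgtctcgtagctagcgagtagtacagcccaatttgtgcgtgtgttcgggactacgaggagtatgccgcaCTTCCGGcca
A window was found for 32 of the 40 genes, and none for Cox6a2. The NRF1 motif (GCGC, any base, then TGCGC) stood in 4 of the 32 (12.5%: Atp5g2, Atp5h, Atp5k and Cox6a1), against 3.86% of all 27025 windows. An ETS motif (CCGGAAG) was in 7 (21.9%: Atp5e, Atp5h, Atp5l, Cox6a1, Cox6b1, Uqcr11 and Uqcrh), against 7.05% of all. Shares for the E-box (CANNTG), which muscle regulatory factors can bind, were 68.8% and 66.0%, and for the MEF2 motif (CTA and TAG with 4 bases between) 3.12% (Cox5b alone) and 3.23%. Neither a C/EBP-ATF element (TGATGNAA) nor a YY1 motif (AANATGGC) matched any of the 32, against 3.53% and 3.93% of all windows. The muscle isoform windows of Cox7a1 and Cox8b held a single E-box each and none of the other motifs. A match describes letters and is not evidence of binding.

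Libraries held 6458295 to 15366745 counts, and the 40 genes made up 0.754% of the counts in control myoblasts, 0.804% on day 1 and 0.754% in myotubes. Each transgene was counted in the libraries labelled for it and at 0 in all others. The summed level of 7 myotube markers was 10.1 to 92.5 CPM (counts scaled to library size) in myoblasts and at least 10100 in day 1 cells and myotubes, and the lists of other cell types stayed at 7.93 CPM or less. Myoblasts treated with antimycin had 83.1 to 92.5 CPM of the myotube list against 17.0 to 21.8 in DMSO, with Myog and Ckm under 1 CPM in both. A pair of libraries stood apart in these genes. The second oligomycin library of myotubes and the third library of myotubes at 5% O2 were the lowest of their 3 replicates in 22 of the 22 members with transcripts of at most 1000 bases, and most results that rest on them are also given without them. Next came the second DMSO library of LbNOX myoblasts, lowest in 20 of the 22. It is a control in all 10 h comparisons of that line and was not left out singly. In bulk RNA, fewer cells of a type and less RNA per cell cannot be told apart.

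Levels below are CPM normalised by TMM (edgeR), and tests are edgeR quasi-likelihood tests on the counts with Benjamini-Hochberg adjustment over all genes of the fit. A gene is called higher or lower at an adjusted p under 0.05, and its log2 fold change is given with its standard error.

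The muscle isoforms of complex IV rose between myoblasts and myotubes, and the other genes moved in both directions. Between control myoblasts and myotubes, 19 of 40 genes were higher and 6 lower, while 35.7% of all 12766 genes tested were higher and 33.7% lower. Without the 3 genes that pass only where they are high, 16 of 37 were higher and 6 lower, with log2 fold changes from -0.77 to 1.10. The median over the 40 was 0.18, against 0.039 over all genes. By complex, 5 of 9 genes of complex III, 8 of 14 of complex IV (5 of 11 without those 3) and 6 of 16 of complex V were higher. On day 1 the counts were already 18 higher and 8 lower (31.3% and 32.3% of all genes), and from day 1 to myotubes 6 were higher and 1 lower (19.6% and 16%). Without those 3 genes the counts were 16 and 8 of 37 on day 1, and 3 and 1 from day 1 to myotubes. With DESeq2 size factors these splits became 20 and 6 on day 1, and 4 and 2 from day 1 to myotubes.

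Cox6a2, the muscle form of a regulatory subunit of complex IV, was almost absent from control myoblasts, at 0, 0.212 and 0.186 CPM. It reached 21.1, 22.7 and 20.9 CPM on day 1 and 47.7, 50.4 and 48.2 CPM in myotubes, so that no library of a later state overlapped an earlier one. From 5 counts in the 3 myoblast libraries, the ratio was 154 on day 1 (95% counting interval 65.6 to 475) and 349 in myotubes (149 to 1070). The rise from day 1 to myotubes was 1.21 ± 0.11 on the log2 scale. Its gene lies at chr7:128205435-128206387 on the minus strand (GRCm38) and overlaps an exon of Itgad, an antisense neighbour with a median of 1 count per library and at most 18. The protocol kept no strand information.

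Cox8b was at 0 in the 3 control myoblast libraries, 7.78, 6.2 and 3.7 CPM on day 1 and 15.9, 17.4 and 21.8 CPM in myotubes. That is at least 68.5-fold and 219-fold higher than a floor of 3 counts over the myoblast group, and myotubes exceeded day 1 by 1.68 ± 0.24 (log2, adjusted p 1.05e-05). Cox7a1 was the lowest of the 3, at 0, 0.0706 and 0.278 CPM in myoblasts, 0.278, 0.73 and 0.386 on day 1 and 2.06, 3.44 and 2.27 in myotubes. From 4 counts in the myoblast libraries, its ratio was 4.11 on day 1 (counting interval 1.33 to 16.9). The myotube level was 5.68 times that of day 1 (3.3 to 10.4), and the lowest myotube library was above the highest day 1 library. Cox6a2 and Cox8b thus rose at both steps. For Cox7a1 the first step was not called (adjusted p 0.0723) and the second was, until plate position entered the model (0.0622), so its steps cannot be ranked.

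The widespread partners did not fall to the same extent. Cox6a1 was at 129, 113 and 117 CPM in myoblasts and 107, 105 and 110 in myotubes, a difference that was not called. Cox8a rose to 209, 207 and 195 CPM on day 1 from 168, 165 and 159, then fell by 0.49 ± 0.08 on the log2 scale to 144, 142 and 139. Per kilobase of transcript, Cox6a2 made up 0.097% ± 0.085 (SD, n = 3) of Cox6a RNA in myoblasts, 13.2% ± 0.47 on day 1 and 27.6% ± 0.92 in myotubes. The share of Cox8b within Cox8 RNA was 0%, 4.19% ± 1.3 and 16.5% ± 2.5, and that of Cox7a1 beside Cox7a2 was 0.163% ± 0.21, 0.699% ± 0.37 and 3.48% ± 0.89. In myotubes the widespread form was thus still the larger part of each pair.

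**Figure D1:**
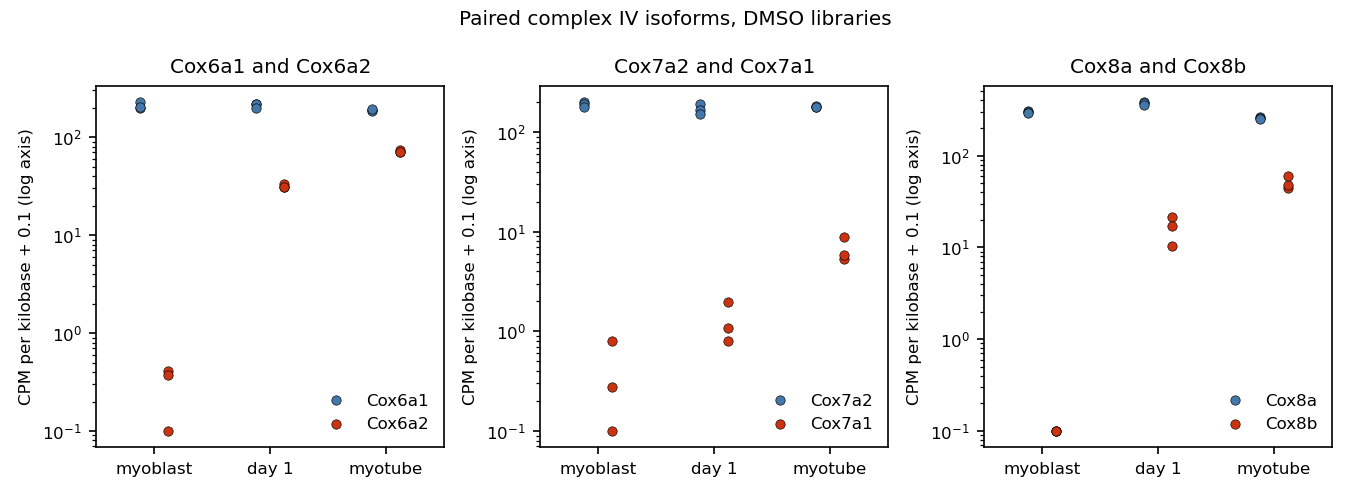
Levels of paired complex IV isoforms in DMSO libraries of control myoblasts, day 1 cells and myotubes, as CPM per kilobase of transcript with a small offset on a log axis, 1 point per library. The muscle forms (red) climb from at or near 0 to 27.6%, 3.48% and 16.5% of their pairs in myotubes, while the widespread forms (blue) stay within a narrow range.

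Cytochrome c moved the other way. Cycs, its somatic gene, was at 64.1, 61.7 and 55.3 CPM in myoblasts, 38.8, 38.7 and 40.9 on day 1 and 34.4, 35.4 and 33.1 in myotubes, with every myoblast library above every other. It fell by 0.61 ± 0.08 on day 1 and by 0.77 ± 0.08 in myotubes on the log2 scale. Cyc1, the cytochrome c1 subunit of complex III, fell by 0.18 ± 0.04 and by 0.17 ± 0.04, calls that were lost without the libraries numbered 2 (adjusted p 0.282 and 0.0793) and, for myotubes, also without those numbered 3 (0.055). Cox5a, which helps to hold the catalytic core of complex IV, dipped on day 1, from 166, 158 and 154 CPM to 111, 119 and 113, and returned in part to 139, 134 and 138. In complex V, Atp5a1 (alpha) and Atp5c1 (gamma) were lower in both later states, with log2 fold changes of -0.25 and -0.30 on day 1.

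Genes of each complex were among those that rose. In complex III they were Uqcrq, Uqcr11, Uqcrh and Uqcrfs1 (the Rieske iron-sulfur protein) with Uqcrc2, a core protein. Uqcrq rose from 63.9, 63.0 and 67.1 CPM to 95.9, 100 and 97.8 on day 1 (log2 0.60) and stayed at 88.7, 100 and 87.0 in myotubes. In complex IV, Cox4i1, Cox5b, Cox6b1, Cox7b and Cox7a2l were higher in both later states by 0.23 to 0.40 on the log2 scale, though Cox6b1 was not called on day 1 without the libraries numbered 3 (adjusted p 0.0681). Among complex V genes, Atp5e (epsilon) rose by 0.61 ± 0.12 and 0.75 ± 0.12 and Atp5k by 0.68 ± 0.16 and 0.72 ± 0.16, and Atp5s, at 3.11 to 3.99 CPM in myoblasts, by 1.02 ± 0.26 and 1.10 ± 0.26.

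The 6 subunits encoded by mitochondrial DNA followed a different course across the states. On day 1, 5 of 6 were lower than in myoblasts, all but mt-Co3, with log2 fold changes from -0.33 ± 0.07 for mt-Co2 to -0.94 ± 0.14 for mt-Atp6. From day 1 to myotubes 6 of 6 rose. Genes that help to assemble complex IV were 9 higher and 7 lower of 24 on day 1 and 12 higher and 7 lower in myotubes, near the shares of all genes given above, and of the 6 for complex III, Uqcc1 was higher on day 1 and Uqcc1, Uqcc2 and Uqcc3 in myotubes. Of 11 biogenesis regulators tested, 2 were higher and 5 lower in either comparison with myoblasts. Of all genes, 31.3% were higher and 32.3% lower on day 1, and 35.7% and 33.7% in myotubes.

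In control myoblasts the 3 inhibitors raised some of these genes and lowered others within each complex. Piericidin raised 11 of 38 and lowered 13 (30.9% and 30.8% of all genes), antimycin raised 11 and lowered 12 (32.1% and 31.1%), and oligomycin raised 14 and lowered 7 (24.5% and 26.3%). Without Cox6a2 the higher counts were 10, 10 and 13 of 37. Medians were near 0, at -0.01, -0.02 and 0.06 on the log2 scale. With piericidin, 4 genes of complex III rose and 2 fell, 4 of complex IV rose and 3 fell, and 2 of complex V rose and 8 fell. With oligomycin the complex V count was 3 higher and 3 lower. Each of these comparisons used the same DMSO libraries.

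Cox6a2 rose with each inhibitor in control myoblasts. With piericidin it reached 10.1, 11.9 and 12.4 CPM, with antimycin 4.44, 3.52 and 3.81, and with oligomycin 10.9, 12.5 and 13.1, against 0, 0.212 and 0.186 in DMSO. Every treated library was above every control library, and antimycin gave the lowest level of the 3 agents. Ratios were 82.0 (counting interval 34.8 to 254), 28.2 (11.7 to 88.5) and 86.4 (36.7 to 268). Per kilobase, Cox6a2 made up 6.32% ± 0.56 of Cox6a RNA with piericidin, 2.02% with antimycin and 6.93% ± 0.93 with oligomycin. Cox8b stayed at 0 in all myoblast libraries except for 1 count in a chloramphenicol library, Cox7a1 reached at most 0.58 CPM in any of them, and Myog and Ckm, which mark myotubes, were under 1 CPM in the control line with every agent. The sum of the 7 myotube markers there was 26.6 to 32.9 CPM with piericidin, 83.1 to 92.5 with antimycin and 22.4 to 31.1 with oligomycin, against 17.0 to 21.8 with DMSO. Nearly all of it was Acta1 (skeletal actin), at 81.9 to 91.2 CPM with antimycin and 14.5 to 19.1 with DMSO, and the part of this in the Cox6a2 values was not tested.

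**Figure D2:**
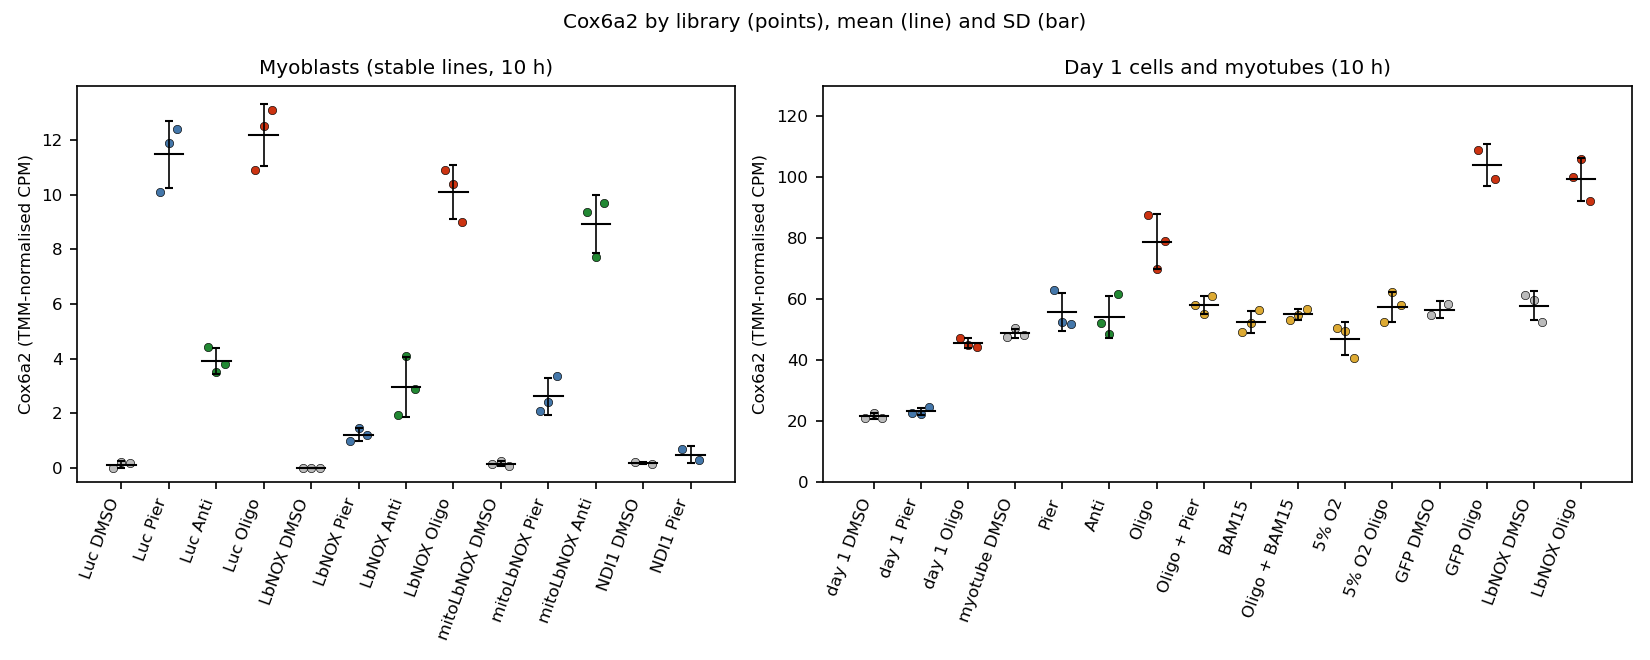
Cox6a2 in TMM-normalised CPM by library (points) with the mean (line) and SD (bar), in myoblast lines (left) and in day 1 cells and myotubes (right), on different axes that start near 0. In control myoblasts the inhibitors take it from under 0.3 CPM to between 3.52 and 13.1 CPM, and oligomycin takes myotubes from 47.7 to 50.4 CPM up to between 69.9 and 87.8 CPM.

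Uqcrq and Uqcrh, both small subunits of complex III, moved in opposite directions. Uqcrq, which binds near the ubiquinone pocket, was at 139, 123 and 137 CPM with piericidin, 79.6, 109 and 114 with antimycin and 147, 144 and 120 with oligomycin, all above the DMSO libraries at 63.9, 63.0 and 67.1. Its log2 fold changes were 1.07 ± 0.11, 0.68 ± 0.11 and 1.09 ± 0.11. Uqcrh, the hinge protein that contacts cytochrome c1, went from 132, 113 and 120 CPM to 72.0, 73.3 and 71.1, to 68.1, 71.8 and 70.1, and to 62.2, 62.0 and 58.9, with no overlap. It fell by 0.72 ± 0.07, 0.75 ± 0.07 and 0.98 ± 0.07 on the log2 scale. Of 23 treatment comparisons in all cells, many of which share control libraries, Uqcrq was called higher in 11 and Uqcrh lower in 9. The 3 in which Uqcrh was called higher are those against oligomycin alone, where the reference itself is low.

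The same split ran through the rest of complex III. Core protein 2 (Uqcrc2) rose with each agent, by 0.46 ± 0.05, 0.36 ± 0.05 and 0.30 ± 0.05 on the log2 scale. Cyc1 did too, from 275, 299 and 286 CPM to 350, 364 and 372 with piericidin and 364, 362 and 342 with antimycin. The Rieske protein gene Uqcrfs1 fell with antimycin (131, 131 and 133 to 95.3, 98.8 and 110 CPM) and oligomycin (107, 108 and 103), and was 126, 128 and 131 CPM with piericidin, where it was not called. Uqcr11 fell by 0.56 ± 0.10 with piericidin and 0.46 ± 0.10 with antimycin.

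In complex IV, Cox4i1 and Cox6a1 rose with each agent, by 0.22 to 0.47 on the log2 scale (Cox6a1 with oligomycin was not called without the libraries numbered 2, adjusted p 0.0973), and the small subunits Cox7a2 and Cox7b fell with piericidin and antimycin. Cox7a2 went from 131, 125 and 118 CPM to 82.9, 65.8 and 70.4 with piericidin and 78.3, 90.4 and 79.8 with antimycin, without overlap. Its decrease with oligomycin, 0.22 ± 0.09, was lost without any one replicate number (adjusted p 0.0609 to 0.152). Cox7a2l, which links complexes III and IV into supercomplexes, rose by 0.48 ± 0.06 with antimycin, from 146, 134 and 141 CPM to 185, 194 and 191. It was called higher in 11 of the 23 treatment comparisons, which share controls, and 6 of those calls were lost when some replicate number was left out.

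In complex V, Atp5b rose while Atp5k fell with piericidin and antimycin. Atp5b, the catalytic beta subunit and the most abundant of the genes here by counts, rose from 1500, 1440 and 1440 CPM to 1760, 1830 and 1760 with piericidin and 1840, 1870 and 1810 with antimycin. Atp5k (subunit e, which takes part in dimer formation) fell from 14.6, 11.7 and 11 CPM to 6.36, 4.85 and 6.23 and to 4.05, 6.24 and 7.15, by 1.06 ± 0.19 on the log2 scale in both. With oligomycin it stood at 10.7, 9.19 and 11.2 CPM, which overlapped the control. Atp5h (stalk subunit d) and Atp5c1 fell most with piericidin, by 0.53 ± 0.05 and 0.48 ± 0.04.

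Genes for the c-ring, the part of complex V to which oligomycin binds, did not move as one. Atp5g1, Atp5g2 and Atp5g3 encode the same mature protein with different import sequences. With oligomycin, Atp5g1 rose in control myoblasts from 159, 158 and 154 CPM to 194, 197 and 199 (log2 0.34 ± 0.04, adjusted p 1.29e-07), while Atp5g3 fell from 261, 258 and 249 to 197, 202 and 209 (-0.33). Neither gene overlapped its control. Piericidin and antimycin lowered Atp5g3 as well, by 0.36 and 0.50, and piericidin alone lowered Atp5g2, from 76.4, 63.2 and 65.9 CPM to 51.1, 40.1 and 46.1.

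**Figure D3:**
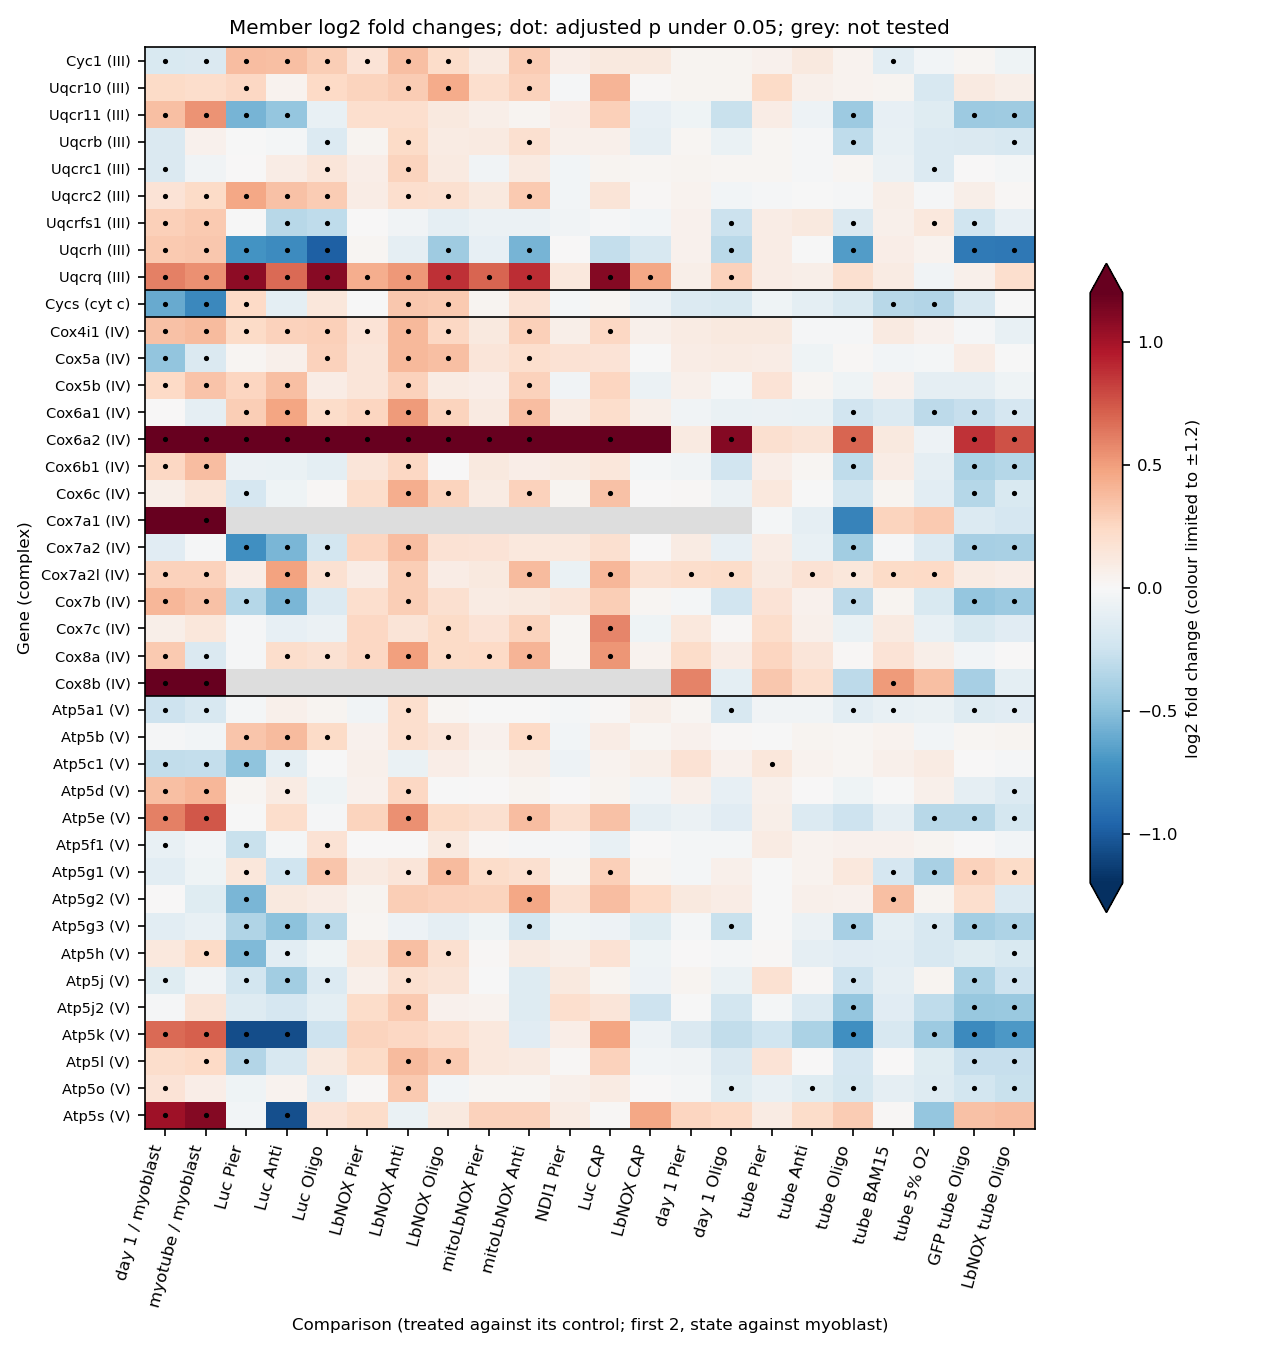
Log2 fold changes of the 40 genes (rows, grouped by complex) in 22 comparisons (columns), on a colour scale limited to ±1.2, with a dot for an adjusted p under 0.05 and grey where a gene was not tested. Control myoblasts show mixed directions within each complex, LbNOX myoblasts with antimycin show 28 dots that are all higher, and the oligomycin columns of myotubes show mostly lower values.

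With LbNOX in the cytosol, few of these genes fell. Piericidin raised 6 of 38 genes and lowered 0 in LbNOX myoblasts (5.01% and 3.86% of all genes), antimycin raised 28 and lowered 0 (23.3% and 22.9%), and oligomycin raised 17 and lowered 1 (17.5% and 17.7%). Without Cox6a2 they raised 5, 27 and 16 of 37. Without the libraries numbered 1 or 2 the piericidin count was 3 or 1, and without those numbered 2 the oligomycin count was 9 higher and 1 lower. The median with antimycin was 0.28, against 0.029 over all genes. The 28 were 6 of 9 genes of complex III, 11 of 12 tested of complex IV, 10 of 16 of complex V, and Cycs. Of the 22 members with transcripts of at most 1000 bases, 16 were higher and 0 lower with antimycin. Of all 664 genes that short, 44.4% were higher and 11.9% lower, and the part of length was not tested.

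The difference between LbNOX and control cells was tested as an interaction. For piericidin, 15 genes responded more positively and 4 more negatively in LbNOX cells (22.3% and 22.0% of all genes, 44.3% in either direction), and for antimycin 23 and 1 (24.7% and 26.8%, 51.5% in either), or 22 and 1 without Cox6a2. Uqcrh stood at 111, 106 and 119 CPM in LbNOX cells with DMSO, 103, 118 and 115 with piericidin and 93.1, 109 and 101 with antimycin, all overlapping the DMSO range or below it by little. Its interactions were 0.74 ± 0.10 (adjusted p 2.89e-07) and 0.64 ± 0.10 (2.42e-06). Cox7a2, at 117, 102 and 126 CPM with DMSO, was at 128, 145 and 132 with piericidin and 134, 151 and 149 with antimycin, above every DMSO library. It rose with antimycin, by 0.37 ± 0.09, and was not called with piericidin (adjusted p 0.0659), while in control cells it fell with both (interactions 0.99 ± 0.13 and 0.92 ± 0.13). Atp5k, at 12.1, 8.93 and 14.6 CPM, was at 11.5, 17.3 and 13.4 and at 14.7, 13.7 and 12.4, which was not called, and its interactions were 1.33 ± 0.26 and 1.31 ± 0.26.

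Some genes that rose in control cells responded less in LbNOX cells. Uqcrq was at 70, 63.6 and 77.5 CPM in LbNOX cells with DMSO and 87.6, 103 and 90.2 with piericidin. The response was smaller than in control cells by 0.64 ± 0.15 (log2, adjusted p 0.000895), and the rise within LbNOX cells was lost without the libraries numbered 2 (adjusted p 0.254). For antimycin the difference in Uqcrq, -0.16 ± 0.15, was not called (adjusted p 0.399). Atp5b and Cyc1 had smaller responses to piericidin in LbNOX cells as well, by 0.28 ± 0.04 and 0.21 ± 0.05, the latter lost without the libraries numbered 2 or 3 (adjusted p 0.0591 and 0.131).

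The level of Cox6a2 in the other lines varied by inhibitor. In LbNOX myoblasts it was at 0 in all DMSO libraries, 0.983, 1.46 and 1.21 CPM with piericidin, 1.93, 4.1 and 2.89 with antimycin and 10.9, 10.4 and 9.01 with oligomycin. Against a floor of 3 counts over the DMSO group these are at least 15.1-fold, 36.1-fold and 126-fold higher. The piericidin levels lay below all 3 of the control line, the antimycin levels overlapped them, and the oligomycin levels were near them. With no counts in the LbNOX control, a fitted interaction depends on the prior count, and its value is not used here. The antimycin interaction counts above include it and are also given without it. In mitoLbNOX myoblasts the gene went from 0.15, 0.252 and 0.0953 CPM to 2.08, 2.42 and 3.38 with piericidin and 9.38, 7.71 and 9.7 with antimycin, the order of the agents being the reverse of that in control cells. In NDI1 myoblasts it was at 0.219 and 0.158 CPM with DMSO and 0.709 and 0.291 with piericidin, a ratio of 2.68 with a counting interval of 0.858 to 9.84.

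The matrix enzyme and NDI1 gave smaller lists. In mitoLbNOX cells piericidin raised Uqcrq, Cox8a, Atp5g1 and Cox6a2 and lowered 0 genes (6.37% and 4.82% of all genes), and antimycin raised 18, or 17 without Cox6a2, and lowered Uqcrh and Atp5g3 (24.8% and 22.9%). Cox8a was lost without the libraries of any 1 number (adjusted p 0.106 to 0.184), and Atp5g3 without those numbered 3 (0.054). Uqcrq rose there from 65.0, 60.9 and 70.3 CPM to 106, 103 and 104 and to 129, 111 and 112. In NDI1 cells, with 2 libraries a group, piericidin changed 0 of the 38 genes by edgeR, with 1 at an unadjusted p under 0.05, and 0 by DESeq2. In the same comparison 0.00835% of all genes were higher and 0.0% lower.

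**Figure D4:**
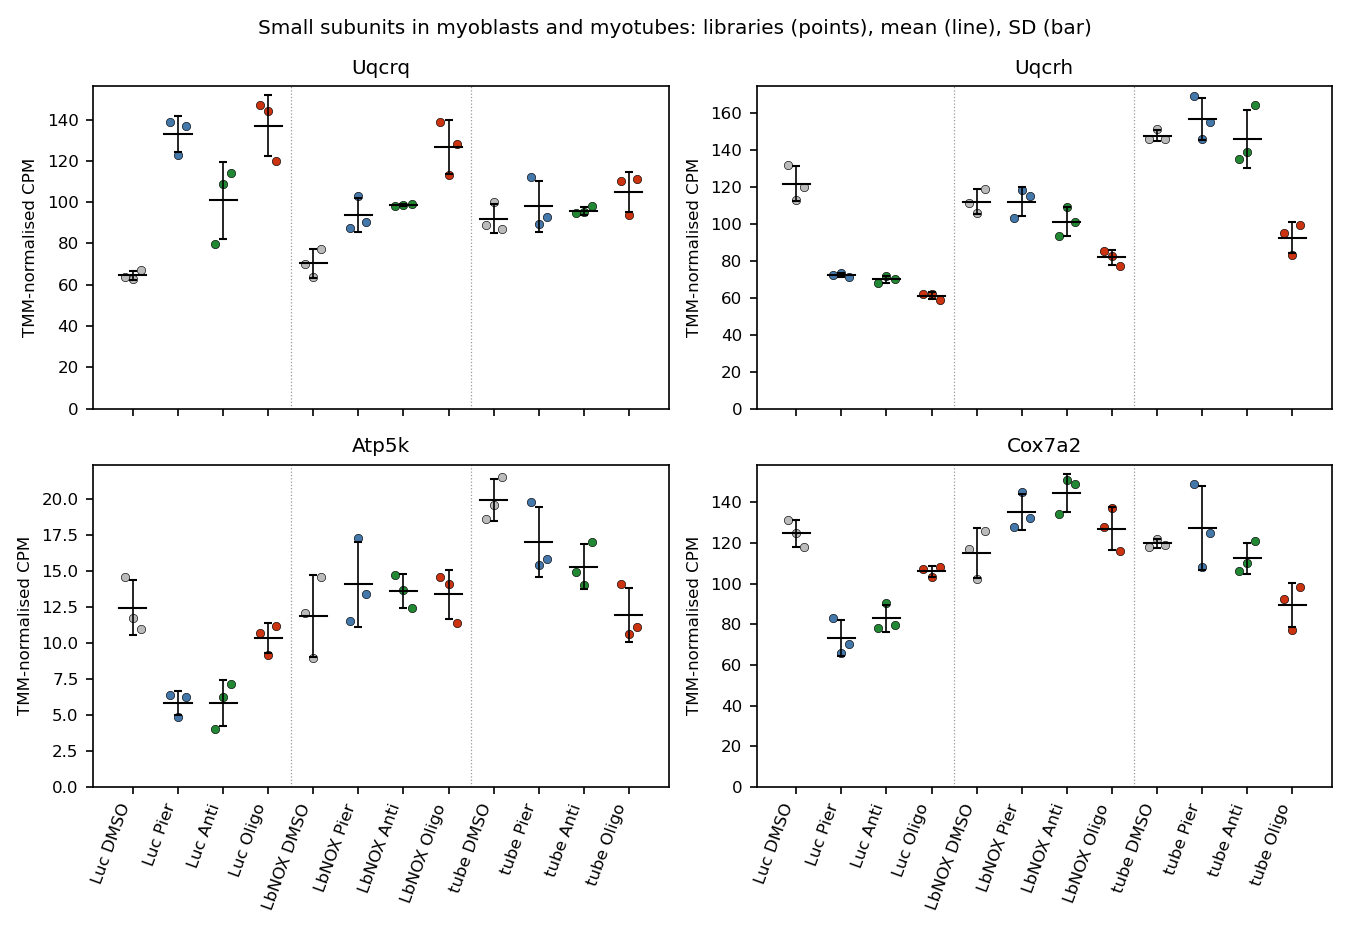
Uqcrq, Uqcrh, Atp5k and Cox7a2 in TMM-normalised CPM by library (points) with the mean (line) and SD (bar), in control and LbNOX myoblasts and in myotubes. Uqcrh, Atp5k and Cox7a2 were called lower with piericidin in control myoblasts, where none of their libraries overlapped DMSO, and with oligomycin in myotubes.

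With antimycin in LbNOX myoblasts, nuclear and mitochondrial genes for the same complexes moved apart. Of 6 subunits encoded by mitochondrial DNA 0 were higher and 4 lower. mt-Cytb, the catalytic core of complex III and the protein to which antimycin binds, went from 794, 801 and 747 CPM to 159, 142 and 148, a log2 fold change of -2.34 ± 0.09. mt-Atp8 went from 112, 84.4 and 99.6 CPM to 34.6, 34.5 and 32.1, and mt-Co3 from 1050, 1040 and 1080 to 613, 635 and 587. mt-Co1 and mt-Co2 were not called, at 0.13 ± 0.08 and 0.07 ± 0.09.

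In the same libraries, Cox5a rose from 151, 144 and 156 CPM to 185, 194 and 199, Cox6a1 from 115, 107 and 123 to 150, 169 and 161, and Atp5e from 43.0, 36.2 and 48.1 to 60.3, 60.8 and 60.0. None of these overlapped its control. The mt-Cytb decrease was smaller without LbNOX: its level went from 1060, 907 and 837 CPM to 722, 708 and 643 in control cells (-0.39 ± 0.08), and the interaction was -1.95 ± 0.12 (adjusted p 2.24e-14). In mitoLbNOX cells the mt-Cytb change was -0.96 ± 0.08. All genes encoded by mitochondrial DNA together went from 2.41% to 2.24% of counts with antimycin in LbNOX cells. In control cells they went from 3.14% to 2.12%. The nuclear genes of complex III assembly (Bcs1l, Uqcc1 and Uqcc2) and of complex V assembly (Atpaf1, Atpaf2 and Tmem70) rose in LbNOX cells with antimycin, 3 of 5 and 3 of 4, with none lower, while 6 of 10 biogenesis regulators fell and none rose, against 23.3% higher and 22.9% lower of all genes. Proliferation markers, 6 genes, summed to 592 to 625 CPM in these libraries against 1230 to 1250 in LbNOX cells with DMSO, and the LbNOX transgene itself was at 226, 264 and 319 CPM against 907, 871 and 927 with DMSO. Their part in these results was not tested.

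**Figure D5:**
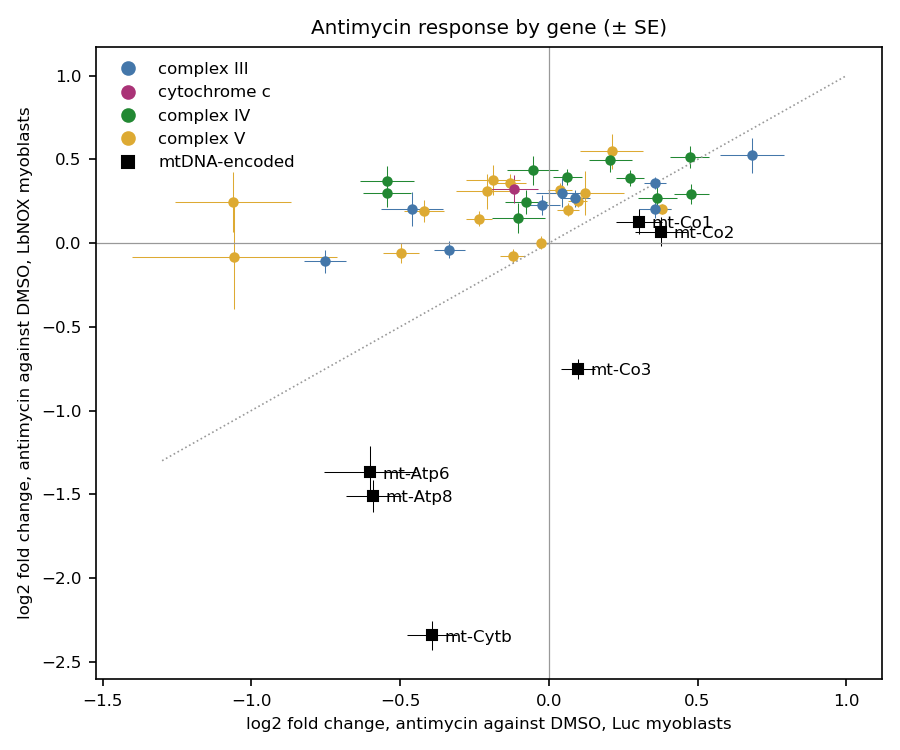
Log2 fold changes with antimycin in control myoblasts (horizontal) and LbNOX myoblasts (vertical), each ± SE, for the nuclear genes (circles, coloured by complex, Cox6a2 left out) and the 6 mitochondrial genes (black squares), with equal change as a dotted line. Nuclear genes lie between -0.11 and 0.55 on the vertical axis, and mt-Cytb lies at -2.34.

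Blocking mitochondrial translation raised few nuclear genes. Chloramphenicol for 48 h raised 8 of 38 genes in control myoblasts and lowered 0 (4.83% and 3.62% of all genes). They were Uqcrq, Cox4i1, Cox6a2, Cox6c, Cox7a2l, Cox7c, Cox8a and Atp5g1, so 6 of the 8 belong to complex IV, and 7 remain without Cox6a2. The Atp5g1 call was lost with the replicate block, with plate position and with only the groups compared (adjusted p 0.0687, 0.0814 and 0.0719). Uqcrq went from 59.6 and 57.9 CPM to 125 and 119 (log2 1.10 ± 0.08), and Cox6a2 from 0 and 0 to 6.19 and 3.32, at least 42.8-fold higher, for which DESeq2 gave no adjusted p. Without the first chloramphenicol library or the second DMSO library of the control line, 3 were called, the arm then having 1 library assumed to vary like the others. In LbNOX myoblasts only Uqcrq was called, from 63.7 and 69.1 CPM to 84.7 and 94.1 (0.46 ± 0.08, adjusted p 0.0398), among 0.675% of all genes higher and 0.256% lower, and it was lost without any 1 of the 8 libraries (adjusted p 0.0618 to 0.329). Cox6a2 there went from 0 and 0 to 0.883 and 1.01 CPM and was not called (adjusted p 0.124). mt-Co1 fell in both lines, by 0.76 ± 0.07 and 0.74 ± 0.07, and mt-Cytb rose.

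In myotubes few of these genes were called with piericidin or antimycin. Of 40, piericidin raised Atp5c1 alone and lowered 0 (4.15% and 4.84% of all genes), and antimycin raised Cox7a2l and lowered Atp5o (6.64% and 6.27%). The piericidin call was lost when the libraries of any 1 number were left out, as was Atp5o with antimycin (adjusted p 0.0935 to 0.259). Cox7a2l was lost without those numbered 1 or 2 (0.305 and 0.163). Uqcrh, which fell with both in control myoblasts, had a log2 fold change of 0.09 ± 0.08 with piericidin and -0.01 ± 0.08 with antimycin in myotubes. Cox6a2, already at 47.7 to 50.4 CPM, was at 63.0, 52.6 and 51.7 with piericidin (0.19, adjusted p 0.291). Set against myoblasts in 1 model, the response to piericidin differed for 20 of 40 genes, 14 more positive in myotubes and 6 more negative (46.5% of all genes, 25.2% and 21.3%), and to antimycin for 21, 12 and 9 (47.9%, 25.4% and 22.5%). Without the 3 muscle isoforms these splits were 14 and 5, and 12 and 8.

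Of these inhibitors, oligomycin had the longest list in myotubes. It raised Cox6a2 and Cox7a2l, the latter lost without the libraries of any 1 number (adjusted p 0.0803 to 0.158), and lowered 14 of 40 (16.9% and 16.4% of all genes), 4 of complex III, 4 of complex IV and 6 of complex V, with a median of -0.13 against -0.0058. Without the muscle isoforms 1 was higher and 14 lower. Without the second oligomycin library, which had stood apart, 3 were higher and 9 lower (15.5% and 13.1% of all genes) with a median of -0.07, and without all libraries numbered 2 the counts were 1 and 5. The response differed from that of myoblasts for 11 genes, 1 more positive and 10 more negative, or 9 without the muscle isoforms (29.0% of all genes, 15.8% and 13.2%), which became 4 genes without the libraries numbered 2, 7 without those numbered 3, and 9 without that single library.

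Cox6a2 rose in myotubes from 47.7, 50.4 and 48.2 CPM to 87.8, 69.9 and 79.0 with oligomycin (0.70 ± 0.10, adjusted p 4.67e-06, and 0.78 ± 0.10 without the second library). GFP myotubes went from 54.7 and 58.5 to 109 and 99.3, and LbNOX myotubes from 61.5, 59.7 and 52.4 to 100, 106 and 92.1. On day 1 it went from 21.1, 22.7 and 20.9 to 47.4, 45.0 and 44.3 (1.11 ± 0.08). No treated library overlapped its control in these 4 settings, and the treated day 1 cells reached nearly the level of untreated myotubes. Per kilobase the share of Cox6a2 went from 27.6% ± 0.92 to 42.1% ± 0.8 in myotubes, from 28.2% to 46.4% with GFP, from a range of 28.9 to 31.4% to a mean of 45.7% with LbNOX and from 13.2% to 25.6% ± 1.2 on day 1. Piericidin on day 1 left it at 22.6, 22.2 and 24.6 CPM (adjusted p 0.584).

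Uqcrh fell in myotubes with oligomycin from 146, 151 and 146 CPM to 95.1, 83.3 and 99.2 (-0.67 ± 0.08, adjusted p 1.73e-07), and by 0.60 ± 0.08 without the second library. It was 159 and 162 CPM against 97.4 and 81.8 in GFP myotubes, and 146, 158 and 153 against 79.1, 92.7 and 83.1 in LbNOX myotubes. The log2 fold changes were -0.85 with GFP and -0.86 with LbNOX, and their difference was not tested. On day 1 the decrease was 0.33, lost without the libraries numbered 1 (adjusted p 0.0728). Atp5k in untransduced myotubes went from 18.6, 19.6 and 21.5 CPM to 14.1, 10.6 and 11.1 (-0.74 ± 0.15), Cox7a2 fell by 0.42 ± 0.09 and Atp5g3 from 228, 234 and 240 to 183, 161 and 187. These 3 remained called without the second library.

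Counts in the virus-treated myotubes were alike. With GFP, 2 genes were higher and 16 lower (13.8% and 12.1% of all genes), and with LbNOX 2 and 18 (16.6% and 15.4%), where complex V gave 1 and 10. Cox6a2 is 1 of the 2 higher in each. Leaving out the libraries numbered 1 or 2 made the GFP counts 1 and 9, or 1 and 6, where each GFP arm was left with 1 library assumed to vary like the other groups of the fit, and leaving out those numbered 1 made the LbNOX counts 2 and 10. The genes that rose in both were Cox6a2 and Atp5g1. Atp5g1 went from 173 and 172 CPM to 214 and 207 with GFP, lost without the libraries numbered 1 or 2 (adjusted p 0.128 and 0.0514), and from 161, 165 and 159 to 190, 196 and 187 with LbNOX. In untransduced myotubes the Atp5g1 change was 0.13 ± 0.06 and not called (adjusted p 0.124), but without the second oligomycin library it was 0.21 ± 0.06 and called (adjusted p 0.00892). Day 1 cells with oligomycin had 3 higher (Cox6a2, Cox7a2l and Uqcrq) and 5 lower (10.6% and 10.1% of all genes), which became 1 and 1, or 3 and 2, without the libraries numbered 1 or 2. Piericidin on day 1 raised Cox7a2l alone of 39 (1.39% higher and 1.36% lower of all genes), and that call was lost without any 1 number (adjusted p 0.22 to 0.294).

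Uqcrh was higher and Cox6a2 lower when a second agent or low oxygen was combined with oligomycin than with oligomycin alone. Myotubes with oligomycin and piericidin held Uqcrh at 141, 139 and 146 CPM, those with oligomycin and BAM15 at 140, 144 and 148, and those with oligomycin at 5% O2 at 165, 162 and 157, all far above 95.1, 83.3 and 99.2 with oligomycin alone. Against oligomycin alone the differences were 0.61, 0.63 and 0.82 on the log2 scale, and 0.54, 0.57 and 0.73 without the second oligomycin library. Cox6a2 was at 58.0, 55.1 and 61.1 CPM, 53.2, 54.9 and 56.8, and 52.4, 62.2 and 58.0, each below 69.9, the lowest with oligomycin alone. Those decreases were 0.45 ± 0.10, 0.52 and 0.44 on the log2 scale, the last lost without the libraries numbered 1 (adjusted p 0.0758). Cox8b, another muscle isoform, was called higher in all 3, by 0.47, 0.83 and 0.69 (log2, adjusted p 0.0385, 0.00029 and 0.00173). Its 4 higher calls among treatment comparisons are these and BAM15 alone, and 3 of the 4 were lost without some replicate number. Its share of Cox8 RNA per kilobase was 13.6% ± 1.0 with oligomycin alone and 16.5% ± 2.5 with DMSO in myotubes.

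Over all 40 genes, adding piericidin to oligomycin raised 10 and lowered 2 (8.46% and 12.4% of all genes), adding BAM15 raised 7 and lowered 5 (12% and 14.1%), and 5% O2 raised 14 and lowered 3 (16.7% and 16.5%), or 13 and 5 with DESeq2 size factors. Without the muscle isoforms they were 9 and 1, 6 and 4, and 12 and 2. All 3 comparisons share the oligomycin libraries and rest in part on the second of them. Without it the counts were 3 and 2 with piericidin, 2 and 5 with BAM15, and 7 and 4 at 5% O2, and the medians went from 0.145 to 0.0548 with piericidin, from 0.0947 to -0.00366 with BAM15 and from 0.146 to 0.0327 at 5% O2. Without all libraries numbered 2 they were 2 and 2, 2 and 3, and 2 and 3, and without those numbered 1 the piericidin counts were 5 and 1. Uqcrh, Cox6a2 and Atp5g1 remained called in all 3 comparisons without that 1 library, although Atp5g1 with piericidin was lost without all libraries numbered 1 or 3 (adjusted p 0.173 and 0.0747).

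BAM15 alone and 5% O2 alone had small effects. BAM15 raised Cox7a2l, Cox8b and Atp5g2 and lowered Atp5a1, Atp5g1, Cyc1 and Cycs (13.2% and 12.2% of all genes), and these counts became 1 and 1, 0 and 0, or 2 and 2 without the libraries numbered 1, 2 or 3. Cox8b was at 24.6, 25.9 and 27.3 CPM, above the 15.9, 17.4 and 21.8 of DMSO (0.51 ± 0.16), a call lost without the libraries numbered 1 or 2 (adjusted p 0.108 and 0.148). At 5% O2, 2 genes were higher and 8 lower (12.3% and 9.78% of all genes), 1 and 10 with DESeq2 size factors, and 3 and 5 without the third library that stood apart (10.5% and 8.25% of all genes). All numbers 2 or 3 left out gave 1 and 4, or 2 and 3. Atp5g1 fell at 5% O2 from 141, 145 and 157 CPM to 115, 117 and 106, by 0.39 ± 0.06, and by 0.35 ± 0.07 without the third library. Cycs fell by 0.35 ± 0.09, lost without the libraries numbered 2 (adjusted p 0.0623) and called without the third library (adjusted p 0.0387). Proliferation markers were 39.4 to 47.7 CPM at 5% O2 with DMSO and 48.8 to 54.1 CPM with oligomycin. Without low oxygen, myotubes with DMSO had 143 to 169 CPM, with no overlap. The part of these markers in the values above was not tested.

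The relation of log2 fold change to transcript length varied between comparisons. Leaving out the 3 muscle isoforms, the log2 fold change with oligomycin in myotubes rose with the length of the longest principal transcript, at a Spearman rho of 0.54 over 37 genes, against 0.0045 over all 11467 genes with a length. It was 0.46 and 0.55 in GFP and LbNOX myotubes, and 0.42, 0.21 and 0.41 in control myoblasts with piericidin, antimycin and oligomycin. It had the opposite sign in LbNOX myoblasts with piericidin (-0.49) and in the comparisons with oligomycin alone, at -0.59 for added piericidin, -0.69 for added BAM15 and -0.65 for 5% O2, which share the oligomycin libraries. From myoblasts to day 1 and to myotubes it was -0.32 and -0.27, and for mitoLbNOX cells with antimycin and myotubes with BAM15 it was 0.005 and -0.011. In LbNOX myoblasts with antimycin it was -0.27, against -0.21 over all 11030 genes with a length. The genes of 1 comparison share their libraries, so these are descriptions. Of 22 members with transcripts of at most 1000 bases, 0 were higher and 11 lower with oligomycin in myotubes, while of all 666 genes that short 12.8% were higher and 18.3% lower. The second oligomycin library was the lowest in each of the 22, and without it 0 were higher and 7 lower. Without that library rho was 0.35 with oligomycin and -0.45, -0.54 and -0.52 for added piericidin, added BAM15 and 5% O2. The 22 made up 39.9, 40.3 and 40.7% of the summed CPM of the 37 in DMSO myotubes, 38.5, 34.5 and 38.3% with oligomycin, and 33.4 to 34.6% in control myoblasts with piericidin against 37.1 to 38.6% with DMSO. The part of length in the decreases was not tested.

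Related genes outside the naming rule gave the same directions in part. Of Ndufa4 (a complex IV subunit despite its name), Usmg5, 2010107E04Rik and Atpif1 (the inhibitor of ATP synthase), 3 fell with oligomycin in myotubes, all but Atpif1, and of these Ndufa4 alone without the second oligomycin library, and piericidin lowered Atpif1 and 2010107E04Rik in control myoblasts. Complex IV assembly genes were mixed, 9 higher and 5 lower of 24 with piericidin in control myoblasts and 6 and 3 with oligomycin in myotubes, or 4 and 3 without that library. Of the biogenesis regulators, 5 of 10 were higher and 1 lower in the first (30.9% and 30.8% of all genes), and 6 of 11 and 1 in the second (16.9% and 16.4%), or 5 and 1 without that library. Markers of the integrated stress response, 7 genes, were 7 higher in control myoblasts with piericidin, antimycin and oligomycin (30.9%, 32.1% and 24.5% of all genes higher). All 7 were also higher in myotubes with oligomycin, BAM15 or antimycin (16.9%, 13.2% and 6.64%) and in day 1 cells with oligomycin (10.6%). In myotubes with piericidin 4 were higher (4.15%), and in NDI1 myoblasts with piericidin 0 changed. These are counts of calls and give no sizes. The paper reports that oligomycin activated this response in myotubes, while piericidin and antimycin had little effect on expression. Whether these markers bear on the genes above was not tested.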

How the data were processed

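RNA was sequenced from 96 C2C12 samples with a Smart-seq2 polyadenylated protocol that keeps no strand. The authors quantified reads with kallisto against Ensembl transcripts with the transgenes added, and summed them to genes with tximport. They deposited estimated counts as whole numbers for 54146 genes and 4 transgenes. Totals ranged from 6458295 to 15366745 (median 10336588.5), so genes under about 16 counts are imprecise, and counting intervals and floors (3 counts) cover counting error only. Counts were tested with edgeR 4.0.16 (TMM, quasi-likelihood F test, Benjamini-Hochberg) in 6 fits and 31 comparisons, keeping a gene where all replicates of some condition in the fit reached 16 counts. The steps were tested on simulated data. Replicate numbers did not pair samples (mean correlation of same-numbered samples -0.0413 to 0.0537 over the fits). Named with values were the isoform groups, the main core subunits and genes drawn from a list made by rule. The list held, per comparison, up to 3 called genes in each direction with at least 50 mean counts and no overlap between groups. Not every gene of that list is given with values. Uqcrq, Uqcrh, Atp5k and others were also followed into comparisons outside that rule after their values were seen. Gene members and lists were chosen with earlier results of these data known. DESeq2 1.42.0 and other settings served as alternatives, and the omission of 2 single libraries was chosen after seeing the data.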

Additional observations from a re-analysis of the deposited data

Results flagged for a closer look

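Responses of part of these genes differed between groups by a test of the difference itself (an interaction term in edgeR). Most of the counts were near the shares of all genes. Between myotubes and control myoblasts, the response differed for 20 of 40 genes with piericidin, 21 with antimycin and 11 with oligomycin, against 46.5%, 47.9% and 29.0% of all genes. Between LbNOX and control myoblasts it differed for 19 of 38 genes with piericidin and 24 with antimycin, against 44.3% and 51.5% of all genes. Of the 24, 23 were more positive in LbNOX cells and 1 more negative, or 22 and 1 without Cox6a2, against 24.7% and 26.8% of all genes. The Cox6a2 call depends on the prior count and was lost with the DESeq2 Wald test (adjusted p 0.0823). Values below are differences in log2 fold change.

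For piericidin in myotubes against myoblasts, they were 0.66 for Atp5c1, 0.44 for Atp5j, 0.56 for Atp5l and -6.04 for Cox6a2, Atp5l falling to 0.37 without the libraries numbered 1 (adjusted p 0.091). For antimycin they were 0.73 for Atp5k, -0.26 for Cox7a2l and 0.50 for Uqcrfs1. Without the libraries numbered 1, Atp5k was 0.35 and not called (adjusted p 0.301), and without a count filter Cox7a2l was not called (0.092). For oligomycin they were -0.20 for Atp5b, -0.45 for Cox6a1, -5.63 for Cox6a2 and 0.31 for Uqcrh. Uqcrh was not called without the libraries numbered 1 or 3 (adjusted p 0.258 and 0.219) or without a count filter (0.0814), nor were Atp5b and Cox6a1 without those numbered 2 (0.0628 and 0.0689). Both Cox6a2 values depend on the prior count, since the control myoblasts held 5 counts in all.

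For piericidin in LbNOX against control myoblasts, the differences were 0.67 for Atp5h, 0.58 for Atp5l, 0.99 for Cox7a2, -0.21 for Cyc1 and -0.64 for Uqcrq. Cyc1 was not called without the libraries numbered 2 or 3 (adjusted p 0.0591 and 0.131). For antimycin they were -0.18 for Atp5b, 0.92 for Cox7a2, 0.84 for Cox7b and 0.67 for Uqcr11. Without the libraries numbered 2, Atp5b was -0.0882 and not called (adjusted p 0.239).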

How the results depend on the processing

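Of 287 other settings for the counts of called genes, 233 stayed within 1.5 times the main count, and of 2605 for genes named in a comparison, 2293 kept direction and call, 312 lost the call and 0 reversed. The cause was not tested for any of the counts below. Without a count filter the calls were 7 (main 11) for oligomycin in myotubes against myoblasts, 2 (main 1) for chloramphenicol in LbNOX cells, 0 (main 2) for antimycin in myotubes and 0 (main 1) for piericidin on day 1. With only the groups compared they were 1 (main 6) for piericidin in LbNOX cells, 0 for chloramphenicol in LbNOX cells, 1 for antimycin in myotubes, 7 (main 12) for oligomycin with piericidin and 2 for piericidin on day 1. The DESeq2 Wald test gave 2 (main 1) for piericidin in myotubes and 3 (main 1) on day 1. With plate position they were 3 (main 7) for BAM15 and 0 for chloramphenicol in LbNOX cells, and this setting was not run on day 1. With the replicate block, chloramphenicol in LbNOX cells and piericidin on day 1 gave 0 each, and no other count moved by over 1.5 times. The summed share of the genes was 0.779% in myoblasts and 0.776% in myotubes without mitochondrial genes, and 0.752% on day 1 with TMM scaling.

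With 1 replicate number or library left out, the called genes ranged from 22 to 25 for day 1 against myoblasts, 5 to 6 for myotubes against day 1 and 21 to 23 for myotubes against myoblasts. The state differences gave 16 to 16, 15 to 17 and 4 to 9 for piericidin, antimycin and oligomycin. In the same order control myoblasts gave 19 to 23, 21 to 23 and 14 to 15, and LbNOX myoblasts 1 to 6, 21 to 25 and 10 to 16. Piericidin and antimycin gave 3 to 3 and 15 to 18 in mitoLbNOX cells, and 14 to 19 and 18 to 20 for the LbNOX differences, and NDI1 gave 0 to 0. Chloramphenicol gave 3 to 8 in control and 0 to 0 in LbNOX cells. In myotubes the ranges were 0 to 0 for piericidin, 0 to 1 for antimycin, 6 to 15 for oligomycin, 0 to 4 for BAM15 and 5 to 12 for 5% O2. Against oligomycin alone they were 4 to 11, 5 to 13 and 5 to 17 with piericidin, BAM15 and 5% O2. GFP and LbNOX myotubes gave 7 to 18 and 12 to 16, and day 1 cells 0 to 0 for piericidin and 2 to 9 for oligomycin.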
